A study of Arabidopsis thaliana with 77 samples.

Results

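Single-base changes from G/C to A/T that were found in only 1 of 5 sequenced Arabidopsis thaliana libraries, and that lay around the centromeres, are described here in the 4 lines that carried them. A change was taken when the reference and called bases were C and T or G and A, when no other library had the same base at the same position, when its call quality was 50 or more and its total depth 10 or more, and when it lay within 3 Mb of 15, 3.6, 14, 4.0 or 12 Mb on chromosomes 1 to 5. The changes were thus chosen by measured values, so their class, quality, depth and position are descriptions and not results. The rule found 688 changes, out of 15725 different variants in the 5 libraries and out of 2400 changes of this class, quality and depth that were found in a single line anywhere on the 5 chromosomes. Line 2-69 held 267 of them, 2-20 held 143, 3-72 held 149 and 3-75 held 129, a mean of 172 ± 63.9 per line (SD, n = 4).

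The series has 77 samples and asks how retrotransposons and small RNAs bear on the centromere in plants without DDM1. The 5 libraries used here were made from genomic DNA of rosette leaves of plants of the Columbia ecotype, 4 weeks old, and were read in pairs on a HiSeq2000. The 4 lines are called episuppressors and named 2-69, 2-20, 3-72 and 3-75, and each is labelled rdr1 rdr2 rdr6 ddm1, although the design text of the series spells the genotype of 3-75 with rdr3 in place of rdr2. The remaining library is labelled rdr1 rdr2 rdr6. All 5 libraries thus share the rdr1, rdr2 and rdr6 labels. Each line has 1 library, so a value describes that library, and how many plants were in each 1 g of leaves is not stated. Nothing in the labels says how the lines were made or whether a mutagen was used.

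DDM1 is a chromatin remodelling protein through which plants maintain methylation of the transposons that fill the sequence around their centromeres. RDR1, RDR2 and RDR6 are RNA-dependent RNA polymerases, which copy RNA into the double strands from which small RNAs are cut. A change from G/C to A/T is the kind that alkylating mutagens and the deamination of cytosine both produce. Written on the forward strand it reads C to T when the changed cytosine lay on the forward strand and G to A when it lay on the reverse strand, and a row of changes of 1 reading on a chromosome therefore shares the strand of the changed cytosine. Crossing over is rare close to plant centromeres, so changes there tend to be inherited together.

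The libraries were checked against their labels first. All 4 lines were homozygous for the DDM1 change G26652152A on chromosome 5, which replaces C615Y in the protein, with 23 reads in 2-69, 14 in 2-20, 10 in 3-72 and 7 in 3-75 and no reference read. The library labelled rdr1 rdr2 rdr6 carried the same change in 9 of 19 reads and was called heterozygous, so its label and its DDM1 base differ. The RDR6 change G18352401A, a stop codon R269*, was homozygous in all 5 libraries, with 37 reads in 2-69, 18 in 2-20, 11 in 3-72, 29 in 3-75 and 23 in the library labelled rdr1 rdr2 rdr6. Depth differed between libraries. At variants common to the 5 libraries the median depth was 56 reads in 2-69, 37 in 2-20, 24 in 3-72 and 35 in 3-75. At the changes themselves it was 30 reads in 2-69, 21 in 2-20, 15 in 3-72 and 18 in 3-75, and the highest depths were 92, 50, 39 and 102 reads in the same order, so a share of reads at a single change of 3-72 is the least precise.

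Changes that carry the results below are shown as 31 bases of the forward strand of the reference (TAIR10.1, RefSeq), 5′ to 3′, with the reference base that was changed in capitals. The first set holds the changes that alter named genes, because they show the sequence around each base whose change alters a gene product. They are the stop codon in BGLU24 (chr5:10483227-10483257, line 2-69), the splice site of IP5PI (chr1:12428864-12428894, line 2-20), a changed residue in DCL3 (chr3:15756455-15756485, line 3-72), and the changes that 2-69 (chr4:4201948-4201978) and 2-20 (chr4:4202854-4202884) each carried in PCN.
BGLU24: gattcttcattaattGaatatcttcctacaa
IP5PI: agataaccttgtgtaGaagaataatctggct
DCL3: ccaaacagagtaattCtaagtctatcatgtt
PCN in 2-69: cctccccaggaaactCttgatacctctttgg
PCN in 2-20: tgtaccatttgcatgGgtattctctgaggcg

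The next set holds the change nearest to the centre position of each chromosome, since these show what sequence the calls closest to the centromeres lie in (chr1:14975397-14975427, chr2:3566533-3566563, chr3:13991873-13991903, chr4:4006991-4007021 and chr5:11992451-11992481). They lay 24.6, 33.5, 8.11, 7.01 and 7.53 kb from the centre positions of chromosomes 1 to 5. The changes on chromosomes 1 and 5 belong to 2-69 and the other 3 to 2-20. None lay in a protein-coding gene. The windows on chromosomes 1, 3 and 5 occur more than once in the reference.
chromosome 1, C14975412T: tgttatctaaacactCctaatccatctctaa
chromosome 2, C3566548T: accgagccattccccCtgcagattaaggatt
chromosome 3, G13991888A: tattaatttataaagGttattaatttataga
chromosome 4, G4007006A: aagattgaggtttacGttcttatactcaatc
chromosome 5, G11992466A: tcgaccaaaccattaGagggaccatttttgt

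The last set holds the 2 ends of the longest row of changes of 1 reading in 3-75, on chromosome 1 (chr1:12207806-12207836 and chr1:17671348-17671378), and a pair of changes of 2-69 whose windows are the same sequence on opposite strands (chr5:10334165-10334195 and chr5:10375290-10375320). The row in 3-75 is G to A at both ends and throughout, whereas the pair in 2-69 reads C to T at one copy and G to A at the other.
3-75, G12207821A: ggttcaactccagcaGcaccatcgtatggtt
3-75, G17671363A: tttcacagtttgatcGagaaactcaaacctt
2-69, C10334180T: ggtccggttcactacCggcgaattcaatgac
2-69, G10375305A: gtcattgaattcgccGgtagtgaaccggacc

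Each limit of the rule left changes close to it. Over the 4 lines 63 of the changes had a quality of 50 to 60, and 88 further calls missed the limit with a quality of 40 to 50. Likewise 41 had a depth of 10 or 11 and 34 calls missed with a depth of 8 or 9. In distance, 102 lay from 2.5 to 3 Mb from a centre position and 82 calls from 3 to 3.5 Mb were left on the arms.

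Around the centromeres of the 4 lines, G/C to A/T was the main class among calls of this quality and depth found in 1 library, whereas in the library labelled rdr1 rdr2 rdr6 it was the smaller one. Among its own changes of the same quality and depth within 3 Mb, line 2-69 had 267 of G/C to A/T and 28 of all other kinds, a share of 90.5%. Line 2-20 had 143 and 12 (92.3%), 3-72 had 149 and 15 (90.9%), and 3-75 had 129 and 14 (90.2%). The library labelled rdr1 rdr2 rdr6 had 10 and 24 (29.4%), and none of those 10 was homozygous. On the arms it had 2 such changes of its own. Before the limits on quality and depth, the library of 2-69 had 844 own calls within 3 Mb, and G/C to A/T made up 49.5% of them. Line 2-20 had 1010 and 45.6%, line 3-72 had 1024 and 52.1%, and line 3-75 had 924 and 42.6%. The class made up 25.3% of 734 own calls in the library labelled rdr1 rdr2 rdr6. The shares near 90% thus hold only for calls past both limits. The class chose the changes, so these shares carry no test.

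In each line the number of changes per Mb around the centromeres was somewhat above that on its arms. The regions within 3 Mb hold 29.8 Mb, which is 25.1% of the sequence, and the arms hold 89.1 Mb. In 2-69 there were 8.95 changes per Mb around the centromeres (exact 95% interval 7.91 to 10.1) and 7.40 per Mb on the arms (6.85 to 7.99). In 2-20 there were 4.80 (4.04 to 5.65) and 3.77 (3.38 to 4.19) per Mb. In 3-72 there were 5.00 (4.23 to 5.87) and 4.77 (4.33 to 5.24) per Mb. In 3-75 there were 4.33 (3.61 to 5.14) and 3.26 (2.90 to 3.66) per Mb.

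The ratio of the density around the centromeres to that on the arms was thus above 1 in 4 of 4 lines, at 1.21 in 2-69, 1.27 in 2-20, 1.05 in 3-72 and 1.33 in 3-75, with a mean of 1.21 ± 0.12 (SD, n = 4). An exact sign-flip permutation test over the 4 lines gave p = 0.125, which is the smallest it can give. Changes of 1 line on 1 chromosome are linked and position chose the members, so no p over single changes is given for this density. At a quality of 100 or more the ratio was 1.46 in 2-69 and 3-72, and with regions of 5 Mb on each side it lay between 1.01 and 1.26. At a depth of 20 or more it was 1.20 in 2-69, 1.26 in 2-20 and 1.42 in 3-75. In 3-72, with 23 changes left around the centromeres at that depth, the ratio was below 1, at 0.917. A setting chosen after the data were seen left out bases whose 31-base window occurs more than once in the reference. The ratio was then 1.12 in 2-69, 1.47 in 2-20, 1.04 in 3-72 and 1.44 in 3-75.

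Homozygous and heterozygous changes gave different ratios of the density around the centromeres to that on the arms. For homozygous changes the ratio was 1.65 in 2-69, 1.09 in 2-20, 1.43 in 3-72 and 1.24 in 3-75. For heterozygous changes it was 0.794 in 2-69, 1.32 in 2-20, 0.714 in 3-72 and 1.60 in 3-75. Lines 2-69 and 3-72 thus had relatively fewer heterozygous changes around the centromeres, and 2-20 and 3-75 relatively more. These ratios were not tested.

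Within the regions the changes reached up to the centre positions, with no bin empty in any line. Counted in bins of 0.5 Mb from the centre outwards, the 4 lines together held 125, 130, 137, 109, 85 and 102 changes. Line 2-69 held 53 changes in the innermost bin and 40 in the outermost, 2-20 held 23 and 24, 3-72 held 28 and 15, and 3-75 held 21 and 23. The inner 1 Mb was denser than the outer 2 Mb in 4 of 4 lines, with ratios of 1.20 in 2-69, 1.31 in 2-20, 1.26 in 3-72 and 1.02 in 3-75. None passed the exact binomial test, which treats linked changes as independent (adjusted p = 0.219 in the first 3 lines and 0.926 in 3-75). The direction depended on the settings in single lines. At a quality of 100 or more the ratio was 0.917 in 3-72, and with regions of 2 Mb it was 0.876 in 3-75. The remaining lines lay above 1 at each of these settings.

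Repeated sequence was more frequent towards the centre positions over the same bins. It made up 44.4, 30.5, 22.5, 19.6, 17.9 and 9.31% of the G/C bases from the innermost bin outwards, where repeated means that the 31-base window around a base occurs more than once on the 5 chromosomes. The changes in such sequence numbered 46, 23, 32, 17, 24 and 13. Counting only bases and changes outside repeated sequence was a setting chosen after the data were seen. The inner to outer ratio was then 1.27 in 2-69, 1.71 in 2-20, 1.69 in 3-72 and 1.21 in 3-75. The exact binomial test, which treats linked changes as independent, passed there in 2-20 and 3-72 (adjusted p = 0.0163 each). The files list only called sites, so how much of each bin could be called is unknown.

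**Figure D1:**
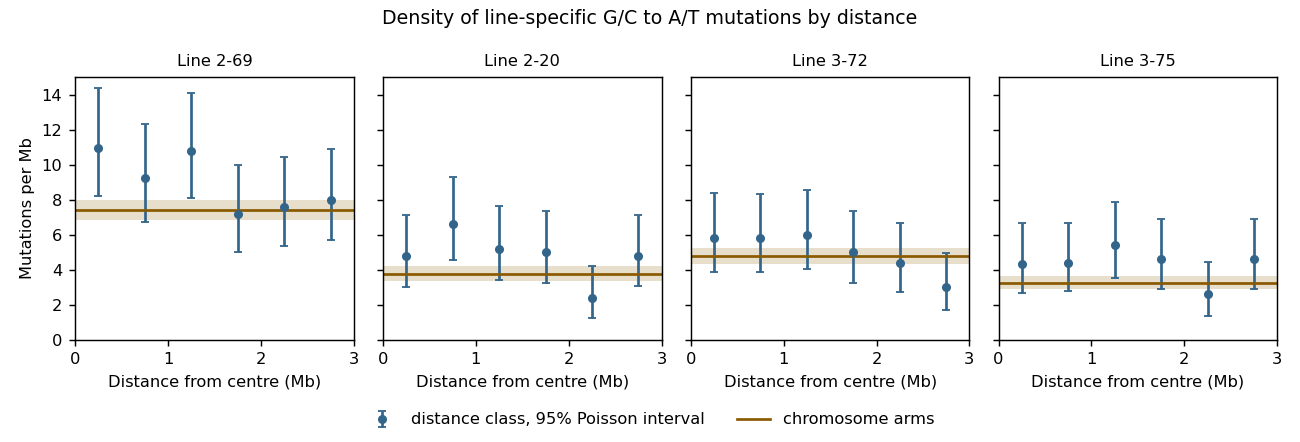
Line-specific G/C to A/T changes per Mb (y axis) by distance from the centre position in 0.5 Mb bins (x axis, Mb), in 1 panel for each of lines 2-69, 2-20, 3-72 and 3-75, with exact Poisson 95% intervals and a band for the density on the arms with its interval. Each bin of 2-69 lies above the same bin of the other 3 lines, and the innermost bin holds 53 changes in 2-69, 23 in 2-20, 28 in 3-72 and 21 in 3-75.

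Repeats also differed between the changes themselves. Of the 688 changes 155 (22.5%) lay in repeated sequence, against 74 of 1712 changes on the arms (4.32%). The G/C bases of the same sequence were repeated in 24.4% around the centromeres and in 3.82% on the arms. Pooled over lines, both sets thus lay in repeats about as often as their sequence does. By line the share around the centromeres was 29.96% in 2-69, 11.9% in 2-20, 23.5% in 3-72 and 17.8% in 3-75. Line 2-69 thus lay above the 24.4% of the bases, and 2-20, 3-72 and 3-75 below it. The Wilson 95% intervals of 3-72 (17.4 to 30.9%) and 3-75 (12.2 to 25.3%) hold that share, and those of 2-69 and 2-20 do not. In 2-69, 6 pairs of changes, 12 changes in all, had the same 31-base window as their partner, and all 12 were heterozygous. The pair printed above lies in AT5G28370 and AT5G28460, a pair of pentatricopeptide repeat genes, and reads G127S in both, in 16 of 28 and 20 of 42 reads. Reads of such a pair could come from either copy, so 1 change seen at both places and 2 separate changes cannot be told apart.

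Chromosomes held similar totals while lines differed on single chromosomes. Over the 4 lines there were 132, 131, 154, 117 and 154 changes on chromosomes 1 to 5. Line 2-69 held 62, 37, 75, 28 and 65 of them, 2-20 held 25, 29, 27, 36 and 26, 3-72 held 18, 39, 29, 25 and 38, and 3-75 held 27, 26, 23, 28 and 25. On chromosome 4 the 25 to 36 changes per line lay close together, with 2-20 highest. On chromosomes 1, 3 and 5 the count in 2-69 was above that of every other line. The spread between lines was largest on chromosome 3, at 38.5 ± 24.5 changes per line (SD, n = 4), and smallest on chromosome 4, at 29.3 ± 4.72.

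The changes were spaced out and not gathered in clusters. The median distance between neighbouring changes of a line was 68.5 kb in 2-69, 140 kb in 2-20, 152 kb in 3-72 and 147 kb in 3-75. Of 668 neighbouring pairs 4 lay within 1 kb of each other, the closest 66 bp apart in 3-72, and no 3 changes of a line lay within 1 kb. The longest gap was 1524 kb, on chromosome 4 of 3-75, where 25 changes lay left of the centre position and 3 right of it.

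**Figure D2:**
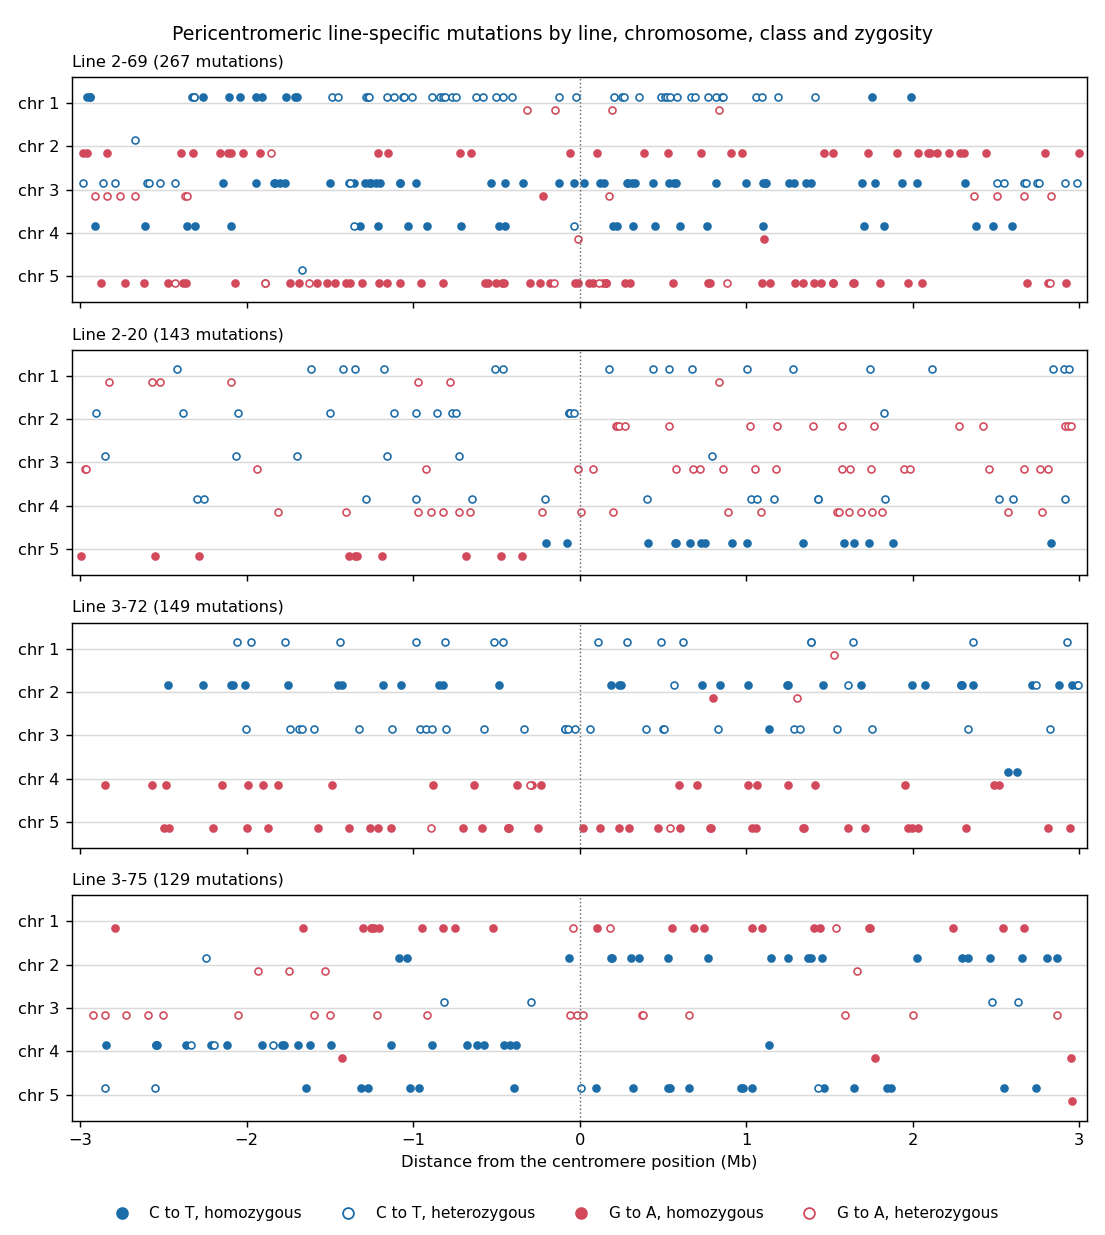
Each of the 688 changes by its distance from the centre position (x axis, Mb) on chromosomes 1 to 5 in lines 2-69, 2-20, 3-72 and 3-75, with colour for C to T or G to A and filled or open marks for homozygous or heterozygous. Rows of 1 colour run through the centre in 3-72 on chromosomes 3 and 5 and in 3-75 on chromosome 1, and 2-20 is filled on chromosome 5 only.

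The share of homozygous changes around the centromeres differed widely between lines. Of the 688 changes 389 were called homozygous, 358 of these without a single high-quality reference read, and 299 were called heterozygous. Line 2-69 had 66.3% homozygous, with a Wilson 95% interval of 60.4 to 71.7%. Line 2-20 had 18.2%, with an interval of 12.7 to 25.3%. Line 3-72 had 63.8%, between 55.8 and 71.04%, and 3-75 had 70.5%, between 62.2 and 77.7%. The interval of 2-20 lay below those of the other 3 lines, which overlapped. These intervals treat linked changes as independent, and all 26 homozygous changes of 2-20 lay on chromosome 5, so they understate the uncertainty. Among heterozygous changes the median share of reads with the change was 51.4% in 2-69, 57.7% in 2-20, 62.3% in 3-72 and 58.6% in 3-75. A plant with 1 changed chromosome and a mixture of plants cannot be told apart from such shares.

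Against the arms of the same library, the homozygous share was higher around the centromeres in 2-69 and 3-72 and lower in the other 2 lines. It was 66.3% around the centromeres and 48.6% on the arms in 2-69, a difference of 17.7 percentage points. It was 63.8% and 46.8% in 3-72, a difference of 16.9 points. In 2-20 it was 18.2% and 21.1%, a difference of -2.95 points, and in 3-75 it was 70.5% and 75.6%, a difference of -5.06 points. The mean difference was 6.65 ± 12.3 points (SD, n = 4), and the exact sign-flip permutation test over lines gave p = 0.5. Neighbouring changes on a chromosome tended to share their zygosity, so no p over single changes is given.

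The differences in 2-69 and 3-72 were not shared by all of their chromosomes. In 2-69 the homozygous share was higher around the centromere than on the arms of the same chromosome on 3 of 5 chromosomes, and most on chromosome 3, with 47 of 75 against 19 of 167. On chromosome 1 of 2-69 it was lower, with 14 of 62 against 98 of 176. In 3-72 it was also higher on 3 of 5 chromosomes, and most on chromosome 4, with 24 of 25 against 15 of 45, while on chromosome 1 it was lower, with 0 of 18 changes homozygous against 40.6% on its arms. In 2-20 and 3-75 it was higher on 1 of 5 chromosomes each.

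The difference in 3-72 turned to -1.74 points at a quality of 100 or more and to -1.57 points at a depth of 20 or more, and was 6.54 points at a quality of 20 or more. That in 2-69 was 9.47, 19.2 and 14.5 points at the same settings, and the mean over lines was 0.16, 1.59 and 1.11 points. Quality moves with zygosity: the median quality was 145 for the homozygous and 75 for the heterozygous changes around the centromeres, and the part of the quality limit in these shares was not tested.

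**Figure D3:**
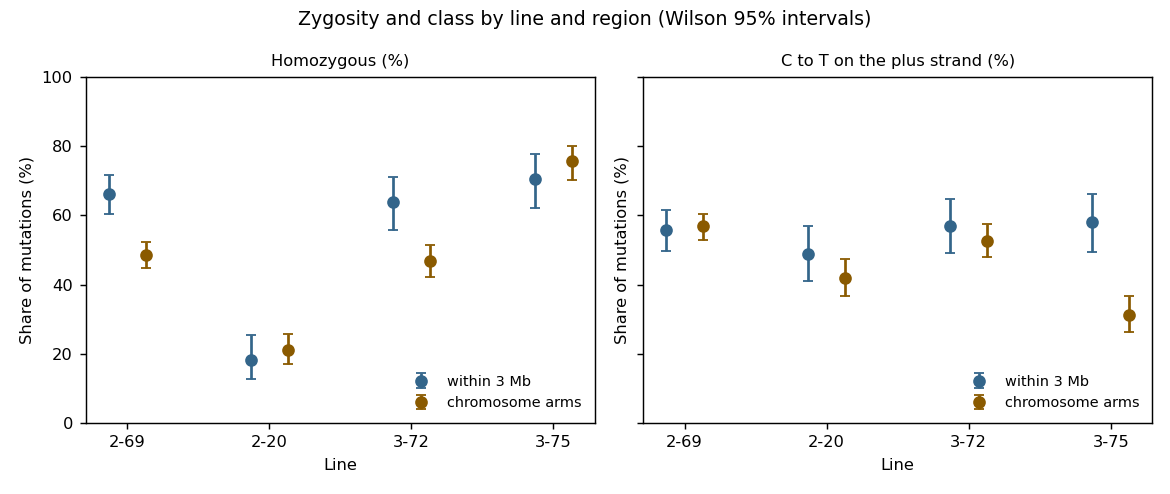
Homozygous share (left) and C to T share (right) in percent, around the centromeres beside the arms, for lines 2-69, 2-20, 3-72 and 3-75, with Wilson 95% intervals. The homozygous share is lowest in 2-20, at 18.2% around the centromeres, and the C to T share differs most in 3-75, at 58.1% around the centromeres and 31.3% on the arms.

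Around the centromeres, most combinations of line and chromosome were either mainly homozygous or mainly heterozygous. The arms of the same chromosome could differ, as given above. Of the 20 combinations of line and chromosome, 11 were homozygous in 80% or more of their changes and 7 had 1 homozygous change or none. In 2-20 all 26 changes on chromosome 5 were homozygous and none of the 117 on the other 4 chromosomes was. In 3-72, chromosomes 2, 4 and 5 were homozygous in 34 of 39, 24 of 25 and 36 of 38 changes, while chromosome 1 had 0 of 18 and chromosome 3 had 1 of 29. In 3-75, chromosomes 1, 2, 4 and 5 had 24 of 27, 21 of 26, 25 of 28 and 21 of 25, and chromosome 3 had 0 of 23.

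Line 2-69 was the one with mixed chromosomes. Its chromosomes 2, 4 and 5 were homozygous in 35 of 37, 25 of 28 and 56 of 65 changes. On chromosome 1, 14 of 62 were homozygous, and a row of 46 heterozygous changes ran from -1.49 to 1.41 Mb from the centre position (negative to its left). The 14 homozygous changes lay outside that row, as did 2 heterozygous changes, both at -2.32 Mb. On chromosome 3 the order was the reverse, and the 47 homozygous changes lay from -2.14 to 2.31 Mb from the centre position, with only heterozygous changes beyond. Line 2-69 therefore switched between homozygous and heterozygous stretches inside the regions on those 2 chromosomes.

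Neighbouring changes shared their zygosity in 89.7% of 668 pairs, where the counts of each chromosome in each line would give 81.5%. The observed share was 87.8% in 2-69, 100% in 2-20, 88.2% in 3-72 and 83.9% in 3-75, where the counts of each chromosome would give 68.9% in 2-69, 100% in 2-20, 88.6% in 3-72 and 79.4% in 3-75. Neighbours in 2-20 and 3-72 thus shared no more than their chromosomes did, and those in 2-69 and 3-75 shared more. On the arms the share was 96.2% over the lines, where the counts of each chromosome would give 69.96%. A single heterozygous change stood between 2 homozygous neighbours 25 times. Of these 25, 18 lay in repeated sequence (72.0%), against 68 of the 274 other heterozygous changes (24.8%), and 21 had the same reading as both neighbours. Without repeated sequence the same-zygosity share was 94.5% in 2-69, 100% in 2-20, 98.2% in 3-72 and 90.1% in 3-75, and the part of repeated sequence in the calls was not tested further.

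Over whole lines, C to T and G to A were about equally common around the centromeres. C to T made up 55.8% of the changes in 2-69, 49.0% in 2-20, 57.0% in 3-72 and 58.1% in 3-75. On the arms the share was 56.8% in 2-69, 42.0% in 2-20, 52.7% in 3-72 and 31.3% in 3-75. Line 2-69 thus differed from its arms by -1.01 points, 2-20 by 6.99, 3-72 by 4.34 and 3-75 by 26.9. The mean difference was 9.30 ± 12.2 points (SD, n = 4), above 0 in 3 of 4 lines (exact sign-flip permutation p = 0.25). Neighbouring changes on a chromosome tended to share their reading, so no p over single changes is given. In 3-75 the C to T share was higher around the centromere on 3 of 5 chromosomes, most on chromosome 4, with 25 of 28 against 4 of 35 on its arms, and lower on chromosome 1, with 0 of 27 against 20 of 95. At a quality of 100 or more the differences were -11.7 points in 2-69, 40.8 in 2-20, 3.18 in 3-72 and 40.9 in 3-75, with a mean of 18.3.

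On single chromosomes of 2-69, 3-72 and 3-75 the 2 readings were far from equal, and changes came in long rows of 1 reading. Line 2-69 had 58 C to T and 4 G to A on chromosome 1, 1 and 36 on chromosome 2, 63 and 12 on chromosome 3, 26 and 2 on chromosome 4, and 1 and 64 on chromosome 5. Its only C to T changes on chromosomes 2 and 5 were heterozygous. Each had the same 31-base window as another change of 2-69, so its place is uncertain. Line 3-72 had 17 and 1, 37 and 2, 29 and 0, 2 and 23, and 0 and 38 on chromosomes 1 to 5. Line 3-75 had 0 and 27, 22 and 4, 4 and 19, 25 and 3, and 24 and 1. In these 3 lines the majority reading made up 82.6% or more of every chromosome, and it was C to T on some chromosomes and G to A on others.

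Line 2-20 stood apart with mixed readings. It had 18 C to T and 7 G to A on chromosome 1, 14 and 15 on chromosome 2, 6 and 21 on chromosome 3, 16 and 20 on chromosome 4, and 16 and 10 on chromosome 5. On chromosome 5, its homozygous chromosome, the 26 changes fell into 10 G to A followed by 16 C to T, with 1 switch between them, and the first C to T change lay 201 kb left of the centre position. On chromosome 2 they fell into 4 rows, the longest of 13 C to T, and on chromosome 4 the reading switched 18 times.

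The longest row of 1 reading around the centromeres was 52 G to A changes over 4.54 Mb in 2-69, on chromosome 5. This row starts at G10375305A, and the C to T change just before it is C10334180T. They are the pair printed above whose reads could come from either copy, so where the row starts is uncertain. In 3-72 the longest row was 38 G to A changes over 5.44 Mb, all the changes of that line around the centromere of chromosome 5. With the arms it formed part of a row of 126 changes over 19.7 Mb. In 3-75 it was 27 G to A changes over 5.46 Mb on chromosome 1, with the ends printed above, and with the arms it was part of a row of 96 changes over 24.4 Mb. In 2-20 it was the 16 C to T changes over 3.03 Mb on chromosome 5. The 29 C to T changes of 3-72 on chromosome 3 were likewise unbroken, in a row of 70 over 15.8 Mb with the arms, although 28 of them were heterozygous. Rows of 1 reading thus crossed the centre positions both where the changes were homozygous and where they were heterozygous.

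Neighbouring changes had the same reading in 578 of 668 pairs (86.5%). By line it was 87.0% in 2-69, 73.2% in 2-20, 95.1% in 3-72 and 90.3% in 3-75. The readings of each line as a whole would give 50.7% over the 4 lines, and those of each chromosome in each line would give 80.6%. By chromosome the value was 86.5% in 2-69, 53.6% in 2-20, 93.5% in 3-72 and 83.3% in 3-75, so the observed share was close to it in 2-69 and 3-72, and in 2-20 it was well above it. On the arms neighbours shared their reading in 84.6% of 1692 pairs, where the readings of each chromosome would give 64.5%.

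Homozygous neighbours shared their reading more often than heterozygous neighbours. They did so in 332 of 344 homozygous pairs (96.5%) and in 190 of 255 heterozygous pairs (74.5%). The homozygous share was 97.5% in 2-69, 96.0% in 2-20, 96.4% in 3-72 and 94.9% in 3-75, and the heterozygous share was 69.9% in 2-69, 68.1% in 2-20, 95.3% in 3-72 and 80.8% in 3-75. The heterozygous pairs of 3-72 were thus close to its homozygous pairs, and those of 2-69 and 2-20 were not. Counted another way, 370 of 389 homozygous changes (95.1%) had the majority reading of the homozygous changes on their chromosome, against 231 of 299 heterozygous changes (77.3%). These shares were not tested, because neighbours on a chromosome are not independent.

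**Figure D4:**
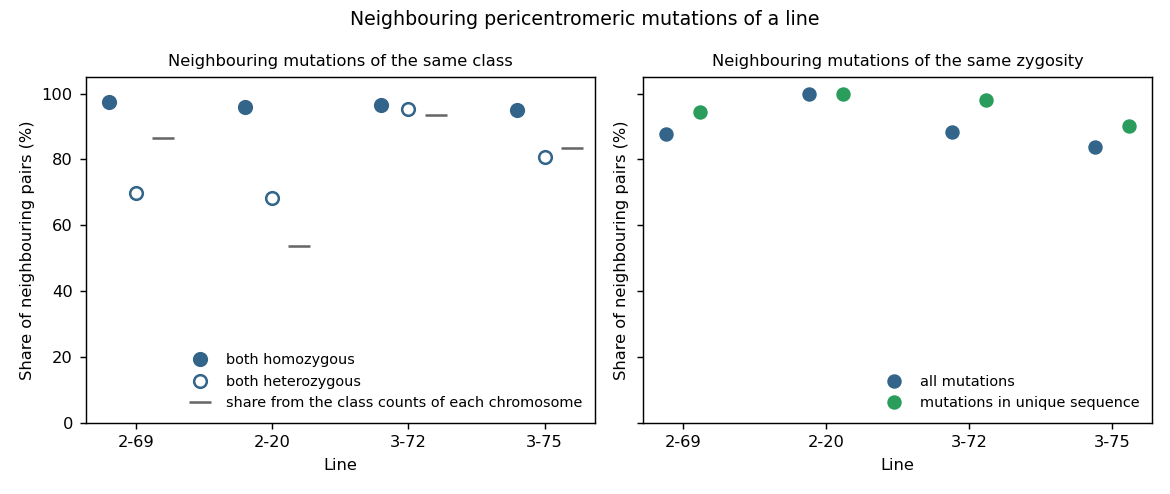
Share in percent of neighbouring changes around the centromeres with the same reading (left; filled points for homozygous pairs, open points for heterozygous pairs, dashes for the share that the counts of each chromosome would give) and with the same zygosity (right; all changes, and changes outside repeated sequence), for lines 2-69, 2-20, 3-72 and 3-75. Homozygous pairs lie between 94.9% and 97.5% in all 4 lines and heterozygous pairs between 68.1% and 95.3%, and the same-zygosity share lies between 83.9% and 100% for all changes.

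Most of the changes lay outside protein-coding genes. Of the 688, 284 (41.3%) were intergenic and 273 (39.7%) lay in loci annotated as pseudogenes, a class in which RefSeq places many transposon genes of Arabidopsis. Protein-coding genes held 121 (17.6%), of which 83 lay in coding sequence, 27 in introns and 11 in untranslated regions, and the remaining 10 lay in other RNA genes. Of the G/C bases around the centromeres 43.5% were intergenic, 32.0% lay in pseudogene loci and 23.3% in protein-coding genes. The share in pseudogene loci was 37.8% in 2-69, 36.4% in 2-20, 43.0% in 3-72 and 43.4% in 3-75, above the share of bases in 4 of 4 lines, although the Wilson 95% interval of 2-20 (28.9 to 44.5%) holds the share of bases. The share in protein-coding genes was 14.6% in 2-69, 18.2% in 2-20, 18.8% in 3-72 and 21.7% in 3-75, below the share of bases in 4 of 4 lines, although the intervals of 2-20, 3-72 and 3-75 hold it. Neither difference was tested.

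The share in protein-coding genes followed the gene content of the sequence. In the bins of 0.5 Mb from the centre outwards, 4, 9, 15, 21, 26 and 46 changes lay in protein-coding genes, which is 3.2, 6.92, 10.9, 19.3, 30.6 and 45.1% of the changes. Of the G/C bases of the same bins 6.70, 7.47, 16.7, 24.2, 36.7 and 51.1% lay in such genes, above the share of changes in each bin. On the arms 74.0% of the changes lay in protein-coding genes, where 70.01% of the G/C bases do. Position chose the changes, so the difference between the regions is a description and was given no weight. Which transposon a change lay in was not analysed here.

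**Figure D5:**
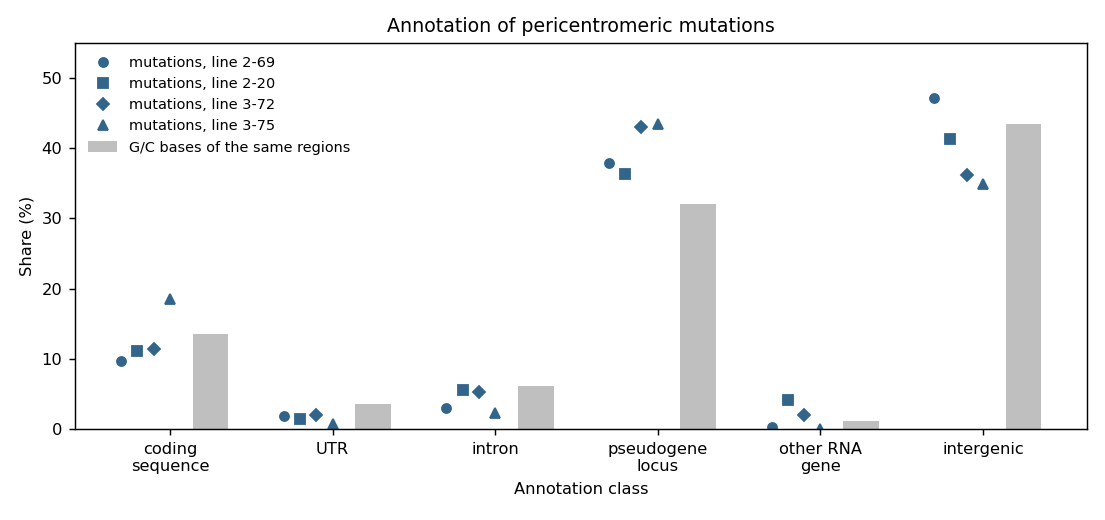
Share in percent (y axis) of the changes around the centromeres in each annotation class (x axis), with 1 point for each of lines 2-69, 2-20, 3-72 and 3-75, beside grey bars for the share of G/C bases of the same regions. The points of all 4 lines lie above the bar in pseudogene loci, at 36.4 to 43.4% against 32.0% of the bases, and in coding sequence 3-75 lies above its bar and the other 3 lines below.

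Of 3201 protein-coding genes around the centromeres 117 held a change, and 63 held one that alters the protein. Protein-altering changes numbered 65 of 688 (9.45%, Wilson 95% interval 7.48 to 11.9) around the centromeres and 598 of 1712 (34.9%) on the arms. Coding sequence made up 13.6% of the G/C bases around the centromeres and 41.6% on the arms. The 65 were 1 stop codon, 1 splice site and 63 missense changes, and 19 further changes were synonymous. There were 3.32 missense changes per synonymous change around the centromeres and 2.44 on the arms. The first of these rests on the 19 synonymous changes, and the difference was not tested. Of the missense changes 35 were homozygous, 11 in 2-69, 1 in 2-20, 12 in 3-72 and 11 in 3-75.

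The stop codon and the splice site fell in enzymes. In 2-69, G10483242A gave the stop codon Q104* in BGLU24 (AT5G28510), a beta-glucosidase, which removes glucose from glycosides. It was homozygous, with 15 of 15 reads. In 2-20, G12428879A changed 1 of the 2 intron bases next to an exon of IP5PI (AT1G34120), an inositol polyphosphate 5-phosphatase, which acts in inositol phosphate signalling. It was heterozygous, with 13 of 16 reads.

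Only 3 genes held changes of 2 lines. The rule leaves out any change found in 2 lines, so these changes differ by construction. PCN (AT4G07410), a WD-40 repeat protein, lies 0.20 Mb from the centre position of chromosome 4. It carried E680K in 2-69 (C4201963T, homozygous, 47 reads) and P432L in 2-20 (G4202869A, heterozygous, 12 of 22 reads). AT5G26850, an uncharacterised protein, carried A878T in 2-20 (G9450093A, homozygous, 19 reads) and P476S in 3-75 (C9448161T, heterozygous, 13 of 27 reads). ATSRL1 (AT5G37370), a protein of the PRP38 family of splicing factors, carried an intron change in 2-69 (G14813611A, homozygous, 34 reads) and R211C in 3-72 (G14813396A, homozygous, 16 reads).

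Homozygous missense changes by call quality named further genes in each line. In 2-69 they were S295F in AT4G10490, an oxygenase of the 2-oxoglutarate class, G303D in AT1G33250, a glycosyltransferase, D654N in AT4G03130, a BRCT domain protein of DNA repair, P172S in AT3G44235 and R126Q in AT5G27340, both uncharacterised, and A453T in AT3G43470, which lies in repeated sequence. The BRCT protein had 32 reads, all with the change. In 2-20 the only one was A878T in AT5G26850, given above.

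In 3-72 they were C234Y in DTX1, an efflux carrier that exports toxic compounds, D209N in DES-1-LIKE, a fatty acid desaturase, E102K in DRP3B, a dynamin-related protein that divides mitochondria and peroxisomes, R176K in AT4G03420, G81R in AT5G34869 and V94I in AT2G15180, a zinc knuckle protein in repeated sequence. These 6 changes of 3-72 had between 14 and 22 reads with the change. In 3-75 they were P143L in SHM7, a serine hydroxymethyltransferase of one-carbon metabolism, S233L in UMAMIT22, a transporter of the nodulin-like family, L52F in AT4G03950, a nucleotide sugar transporter, S197F in AT4G02650, an ENTH/ANTH protein of vesicle traffic, A611T in AT1G33680, a KH domain protein, and L180F in AT5G35695, a protein like the nuclease HARBI1, which derives from a transposase.

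Of the listed genes of RNA silencing, DNA methylation and the centromere, 1 held a change. The regions hold 3201 of 27444 protein-coding genes (11.7%), of which 117 (3.66%) held a change. Of 24 RNA silencing genes looked for, 4 lie around the centromeres, namely RDR2, DCL3, AGO1 and CLSY1, and the change was in DCL3. It was S516F (AT3G43920, C15756470T) in this dicer, which makes the small RNAs of RNA-directed DNA methylation, and was heterozygous in 3-72 with 8 of 11 reads. Of 22 DNA methylation and chromatin genes 0 lie there. Of 23 centromere, kinetochore and cohesin genes 18 were matched in the annotation and 1, MIS12, lies there, with no change.

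Some further genes were chosen for their function after their values were seen. FANCM (AT1G35530), a helicase that limits crossing over in meiosis, carried T214I in 2-69 (C13090961T, homozygous, 28 of 28 reads). RECQSIM, a helicase of the RecQ family, carried S234F in 3-72 (G9797847A, homozygous, 12 reads), SFR6, a subunit of the Mediator complex, carried L1117F in 3-75 (C2504396T, homozygous, 14 reads), and SPT16, a histone chaperone of the FACT complex, carried V808M in 2-20 (C6603029T, heterozygous, 11 of 22 reads). Whether any of these changes affects its protein was not tested.

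The changed cytosine was read with its neighbours on its own strand. It lay in CG in 14.0% of the 688 changes, in CHG in 18.5% and in CHH in 67.6%, where H is any base but G. Of the cytosines of both strands around the centromeres 12.96% lie in CG, 13.4% in CHG and 73.7% in CHH. Changes on the arms lay in CG in 18.9%, in CHG in 18.5% and in CHH in 62.7%. The cytosines of the arms lie in CG about as often as those around the centromeres. The CG share was thus close to that of the sequence around the centromeres and above it on the arms.

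By line the CG share was 16.9% around the centromeres and 20.6% on the arms in 2-69, 11.9% and 16.7% in 2-20, 8.72% and 18.8% in 3-72, and 16.3% and 17.5% in 3-75. It was lower around the centromeres in 4 of 4 lines, by a mean difference of -4.97 ± 3.73 points (exact sign-flip permutation p = 0.125, the smallest it can give). Fisher's exact test, which treats linked changes as independent, passed in 3-72 alone (difference -10.1 points, adjusted p = 0.0168), with adjusted p = 0.283 in 2-69, 0.283 in 2-20 and 0.888 in 3-75. With reference cytosines in place of arm changes the mean difference was 0.47 points and 0 lines passed, and 0 lines passed at a quality of 100 or more or of 20 or more, at a depth of 20 or more, or with regions of 2 or 5 Mb.

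The bases beside the changed cytosine also differed from those of the sequence. The next base 3′ was A in 21.1% of the changes around the centromeres and in 16.6% on the arms, where A follows 34.7% of the cytosines around the centromeres. It was C in 27.9% and 25.9%, where C follows 19.5%, and T in 37.1% and 38.6%, where T follows 32.9%. The base 5′ was T in 39.97% and 39.6%, where T comes before 35.1%. An A after the cytosine was thus less frequent, and a C after it more frequent, than in the sequence, both around the centromeres and on the arms. These shares were not tested.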

How the data were processed

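Genomic DNA of 5 libraries was sequenced, and the authors deposited 1 list of single-base calls for each (variant call format 4.1), made with samtools 0.1.19-44428cd per the file headers. Bowtie, SAMtools, Bismark and TAIR10 are named in the submitters' processing notes without roles. Filters on the calls: not given in the sources used here. Quality is the authors' phred-scaled score, and depth and zygosity are also deposited values. The reference base matched the RefSeq assembly TAIR10.1 at 100% of the calls. Gene models came from that annotation, the longest coding sequence was translated, and a splice site was either of the 2 intron bases at an exon's edge. A base counted as repeated when its 31-base window occurred more than once on the 5 chromosomes, on either strand. No transposon annotation was used.

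Named were all stop and splice-site changes, up to 6 homozygous missense changes per line by quality, genes with changes of 2 or more lines, the change nearest each centre position, the ends of the longest row of 1 reading in each line, and changes in genes of 3 lists. Fisher's exact tests, two-sided, compared shares and exact binomial tests compared densities, each adjusted by the Benjamini-Hochberg method over the 4 lines with a threshold of 0.05, and exact sign-flip permutation tests were used on means over lines. Intervals are 95% intervals, cover counting error only, and treat linked changes as independent, as the tests over single changes do. For the density against the arms, zygosity and reading, p-values are therefore given only for the tests over lines. Counts of lines that pass tests over single changes are given for these only to compare settings. Depth differs between libraries, so a shallower library may lack calls that a deeper one has. The members and lists were chosen with earlier results of these data known. Alternatives changed the limits on quality, depth and distance, the definition of line-specific and of homozygous, clustered calls, the denominator and the lines. The tools were Biopython 1.88, matplotlib 3.10.9, scipy 1.17.1, numpy 2.4.6 and Python 3.11.15, and the scripts were tested on simulated data.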

Additional observations from a re-analysis of the deposited data

Results flagged for a closer look

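Line 2-69 held 267 changes around the centromeres and lay far from the other 3 lines, which held 143, 149 and 129. Chance marks about 1 in 20 groups this way. Its median depth at variants common to the 5 libraries was also the highest, 56 reads against 24 to 37 in the other lines, and the part of depth in the count was not tested.

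The homozygous share around the centromeres minus that on the arms was 17.7 percentage points in 2-69 and -5.06 points in 3-75, in opposite directions. The difference between the lines was not tested.

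The C to T share around the centromeres minus that on the arms was 26.9 points in 3-75 and -1.01 points in 2-69, and the difference between these lines was not tested either.

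Line-specific changes other than G/C to A/T, of the same quality and depth within 3 Mb, numbered 28 in 2-69, 12 in 2-20, 15 in 3-72 and 14 in 3-75. The count in 2-69 was above the 24 in the library labelled rdr1 rdr2 rdr6.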

How the results depend on the processing

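No paired analysis was possible because no replicate numbers pair the lines, each having 1 library. Differences from the arms were taken within a library. A line passes by a test over single changes, which treats linked changes as independent, so these counts show only what the settings do. Means over the 4 lines and counts of lines that pass follow, with the value under the settings of the report in brackets. In no case was the cause tested. Changes per line were 98 at a quality of 100 or more and 98.3 at a depth of 20 or more (172). The density ratio to the arms was 1.37 at quality 100, 1.35 at quality 20 and 1.34 with regions of 2 Mb (1.21), and 0 lines passed at depth 20 or with 5 Mb (3). The inner to outer ratio was 1.37 at quality 20, 1.04 with 2 Mb and 1.47 without repeated sequence (1.20), where 3 lines at quality 20 and 2 without repeated sequence passed (0). The homozygous difference was 0.16 points at quality 100, 1.11 at quality 20 and 1.59 at depth 20 (6.65), and 1 line passed at quality 100, at depth 20 and with 2 Mb (2). The C to T share was 63.0% at depth 20 (54.99%), and 1 line passed at quality 100, with 2 Mb and with 5 Mb, and 2 at quality 20 and depth 20 (0). Its difference from the arms was 18.3 points at quality 100 and 16.3 at depth 20 (9.30), and passed in 3 lines at quality 100, in opposite directions, and in 2 at depth 20 and with 5 Mb (1). Neighbours shared their reading in 76.5% at quality 20 (86.4%). The CG difference was 0.47 points against reference cytosines (-4.97), the only mean that turned its direction, and 0 lines passed there, at quality 100 or 20, at depth 20, or with 2 or 5 Mb (1). The difference in the share in protein-coding genes was -53.2 points at quality 100, -67.9 at depth 20, -60.8 with 2 Mb, -43.8 with 5 Mb and -54.2 without repeated sequence (-56.1).

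Leaving out each line in turn gave 140 to 186 changes per line, a density ratio of 1.18 to 1.27, an inner to outer ratio of 1.16 to 1.26, homozygous differences of 2.98 to 10.55 points, C to T shares of 53.9 to 57.0%, C to T differences of 3.44 to 12.7 points, CG differences of -6.21 to -3.26 points, and 83.5 to 90.8% of neighbours with the same reading. Lines that passed then numbered 2 to 3 for density, 1 to 2 for the homozygous share, and 0 to 1 for the C to T and CG differences. Of 228 values recomputed under alternatives, 187 lay within 1 SD over lines of the value reported or, for counts, within 1.5 times. Every value rests on 1 library per line of unequal depth and on called sites only, heterozygous changes had lower quality than homozygous ones, and repeated sequence leaves the place of some reads unknown.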
